A study of Mus musculus with 22 samples.

Results

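The testes table of this mouse series holds 116 genes whose symbols begin with *Rnf* and a digit or with *Ube2*, of 17931 gene symbols in all. They comprise 79 *Rnf* genes, named for the RING finger of ubiquitin ligases, and 37 *Ube2* genes, named for the ubiquitin-conjugating enzymes. The choice used symbols alone and no measured value, though it was made with earlier results of these data known. Ligases and conjugating enzymes with other names fell outside it. For the test, 110 of the 116 had enough reads, and the other 6 (*Rnf113a1*, *Rnf207*, *Rnf223*, *Rnf224*, *Rnf39* and *Ube2ql1*) had at most 15 counts in any library. 1 member, *Ube2cbp*, carries the conjugating-enzyme name for a protein that binds such an enzyme.

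Ubiquitin is activated by an E1 enzyme, passed to an E2 conjugating enzyme and then joined to a protein with the help of an E3 ligase, which chooses the target. Most RING ligases hold the loaded E2 and the target together, whereas ligases of the RING-between-RING kind first take ubiquitin onto themselves. In the testis, ubiquitin marks histones before protamines replace them, takes part in repair of the DNA breaks of meiosis, and clears proteins and organelles from the maturing spermatid.

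Testes were taken whole for RNA-seq at 7 months of age, from 3 males of each genotype, and the 6 libraries held 16674678 to 19742726 counts. MLX is a transcription factor of the extended MYC network, and the MLX KO males carried a constitutive whole-body deletion of the *Mlx* exons that encode its dimerization and DNA-binding region, made in 129S4 embryonic stem cells. WT males were proven breeders and age-matched littermates of the KO males, and no agent was given to either group. *Mlx* itself did not check the labels: its LFC (the log2 fold change, MLX KO minus WT) was -0.18 with an adjusted p of 0.326 (edgeR). Counts are per gene symbol, and whether reads from exons that the deletion left account for this was not tested.

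Members were found at both ends of the response, with more of them lower than higher in the KO. Of the 110 tested, 16 were higher and 35 were lower in MLX KO testes at an adjusted p under 0.05 from edgeR's quasi-likelihood test. In all, 46.4% of tested members passed, beside 45.4% of the 14640 genes tested, so their share was near that of the transcriptome. The split between directions differed more: 14.5% of members were higher beside 24.8% of all genes, and 31.8% were lower beside 20.6%. The median LFC was -0.07 over the members and 0.03 over all genes.

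Changes in the family were small. Among the 51 members that passed, the median absolute LFC was 0.27, beside 0.40 over all genes that passed, and only *Rnf122* exceeded an LFC of 1. All 51 moved the same way in each of the 3 littermate pairs. This adds little, because 50 of them had groups that did not overlap, which fixes the sign in every pair. In CPM (counts relative to the TMM-scaled size of each library), the 3 WT and 3 KO values did not overlap for 63 of the 110 members, and the same held for 56.2% of all genes tested. The *Rnf* genes gave 11 higher and 22 lower of 74 tested, and the *Ube2* genes gave 5 higher and 13 lower of 36. With libraries scaled by their totals alone, the split turned to 31 higher and 15 lower, and the median LFC of all genes rose to 0.16. Without KO replicate 2 the lower members numbered 23, and with DESeq2 and the replicate block 10 were higher and 29 lower. Relative to that median, the members' median lay at -0.09 in the main fit and at -0.10 on totals alone.

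**Figure D1:**
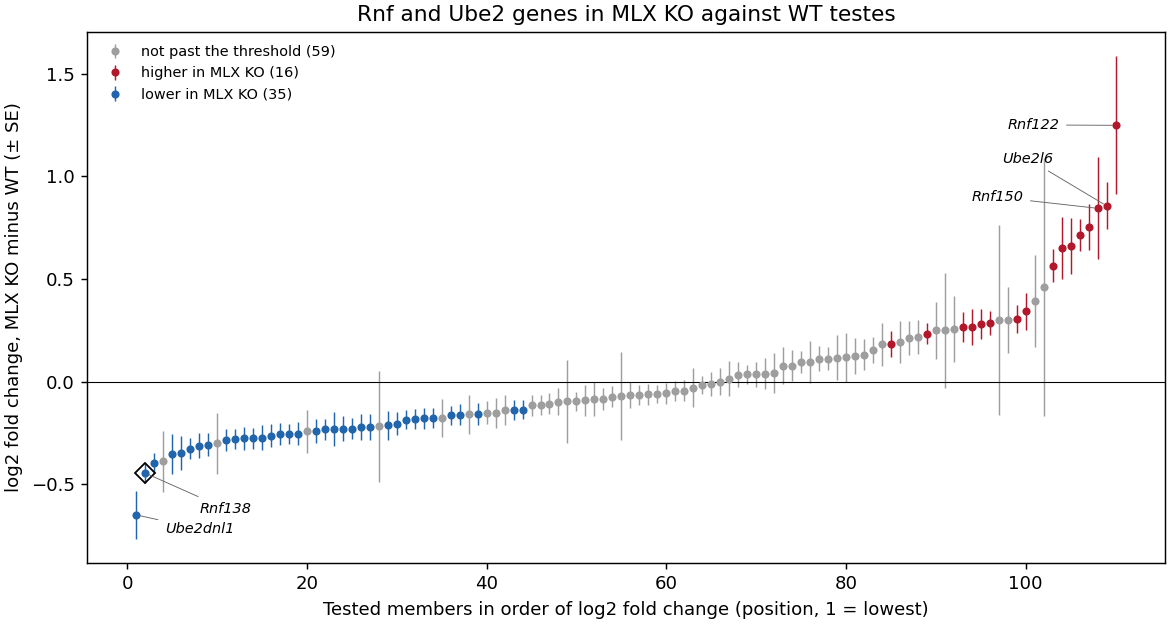
Each point is a tested *Rnf* or *Ube2* gene, placed by its position in the order of LFC (x axis) and by its LFC with SE (y axis); red and blue points passed the test and the diamond marks *Rnf138*. The 35 lower members form a shallow slope above -0.5 apart from *Ube2dnl1*, whereas the 16 higher members reach 1.25.

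*Rnf138* fell in MLX KO testes and had the lowest LFC of the 74 tested *Rnf* genes. The study had already named a loss of *Rnf138*, and the gene was set beforehand as the one to place, so its fall is no independent finding. The RNF138 protein is a zinc-finger RING ligase that acts in resection of DNA double-strand breaks. It also ubiquitinates TCF/LEF factors together with Nemo-like kinase. The gene lies on the plus strand of chromosome 18 at chr18:21001245-21028224 (GRCm38.p6). Counts were 12101, 9944 and 11180 in the WT testes and 9531, 8264 and 8446 in the KO testes. In CPM these were 638, 632 and 630 in WT and 492, 457 and 447 in KO, so every KO testis lay below every WT testis. The 3 WT values lay within 7.57 CPM of each other, against a difference between the group means of 168 CPM. The LFC was -0.45 (SE 0.05, adjusted p = 6.72e-05), a fall of 26.6%.

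Within the 110 tested members, *Rnf138* took position 2 from the lowest LFC, after *Ube2dnl1*. The difference between these 2 LFCs was -0.20 with an SE of 0.13, so their order lay within the error. Next came *Rnf139* at -0.40, and the difference of 0.05 from *Rnf138* was below its SE of 0.07. Up to position 10 no difference from *Rnf138* reached 2 SE, taking the genes as independent. The first that did was *Rnf41* at position 11 (LFC -0.28), with a difference of 0.16 and an SE of 0.07, and some members further up the order with few reads did not. *Rnf138* therefore stood in a leading set of members rather than apart from them. Among all genes tested, 4.07% had a lower LFC than *Rnf138*, as had 14.3% of the genes that were lower in the KO.

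The fall was seen in each littermate pair, at -22.9%, -27.7% and -29.1%. Its position from the lowest among the members was 4, 3 and 4 in these single pairs. Over the 14 other settings of the analysis the LFC ran from -0.48 to -0.31 and the largest adjusted p was 0.000846. In 13 of the 14 *Rnf138* kept position 2. Without KO replicate 1 it took position 3, after *Rnf165* and *Ube2dnl1*.

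*Rnf138* was also among the more abundant members. Per kilobase of exon it stood at 77.9 CPM in WT, which ranked 12 among 116 members and 8 among the *Rnf* genes. In the KO it stood at 57.2 CPM per kilobase and ranked 19. In WT its neighbours in level were *Ube2s* above it (94.8) and *Rnf7* below it (77.0). The 3 WT values ran from 77.5 to 78.4 for *Rnf138* and from 74.5 to 78.8 for *Rnf7*, so that these 2 levels overlapped. In the KO *Rnf138* (54.9 to 60.4) lay below *Rnf7* (69.8 to 73.3) in every testis. *Rnf138* gave 6.93% of the summed CPM of all *Rnf* genes in WT and 5.83% in KO. Only 0.701% of its 50-base words recur in other transcripts, and its exons overlap no other gene.

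*Rnf114*, *Rnf125* and *Rnf166* encode ligases of the same architecture as RNF138, with a RING, zinc fingers and a ubiquitin-interacting motif, and *Rnf138rt1* is an X-linked gene copy of *Rnf138*. Of these 5, *Rnf125*, *Rnf138* and *Rnf166* were lower in the KO, none was higher, and the group's median LFC was -0.16. Over all genes tested 20.6% were lower. Of the 3 level classes given below, the highest held *Rnf138* and *Rnf166*. There 62.3% of all genes were lower and their median LFC was -0.19. The middle class held *Rnf114*, *Rnf125* and *Rnf138rt1*, and there 21.6% of all genes were lower with a median LFC of -0.03. On library totals alone the median was -0.02.

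*Rnf125*, a ligase of the RIG-I antiviral sensor that lies beside *Rnf138* at chr18:20944615-20987359, stood at 34.0, 37.2 and 34.5 CPM in WT and 31.1, 26.1 and 25.9 CPM in KO. Its groups did not overlap, and the LFC was -0.35 (SE 0.08, adjusted p = 0.00569). *Rnf166* stood at 99.5, 104 and 104 CPM in WT and 92.6, 87.2 and 95.2 CPM in KO. The groups were again separate, though close, with an LFC of -0.16 (SE 0.05, adjusted p = 0.0226). Its call was lost on library totals alone, under DESeq2 with the replicate block (adjusted p = 0.0692), and without WT replicate 2, WT replicate 3 or KO replicate 2.

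*Rnf114* did not pass and its groups overlapped, at 69.6, 72.7 and 74.2 CPM in WT and 69.3, 66.8 and 71.2 CPM in KO. Its LFC of -0.06 (adjusted p = 0.337) turned to 0.077 on library totals alone. *Rnf138rt1* stood at 19.0, 21.0 and 18.4 CPM in WT and 15.99, 19.5 and 16.8 CPM in KO, which overlapped as well (LFC -0.16, SE 0.10, adjusted p = 0.198). The LFC of the copy thus did not reach the threshold while that of the parent gene did, and the difference between both LFCs was 0.29 with an SE of 0.11.

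**Figure D2:**
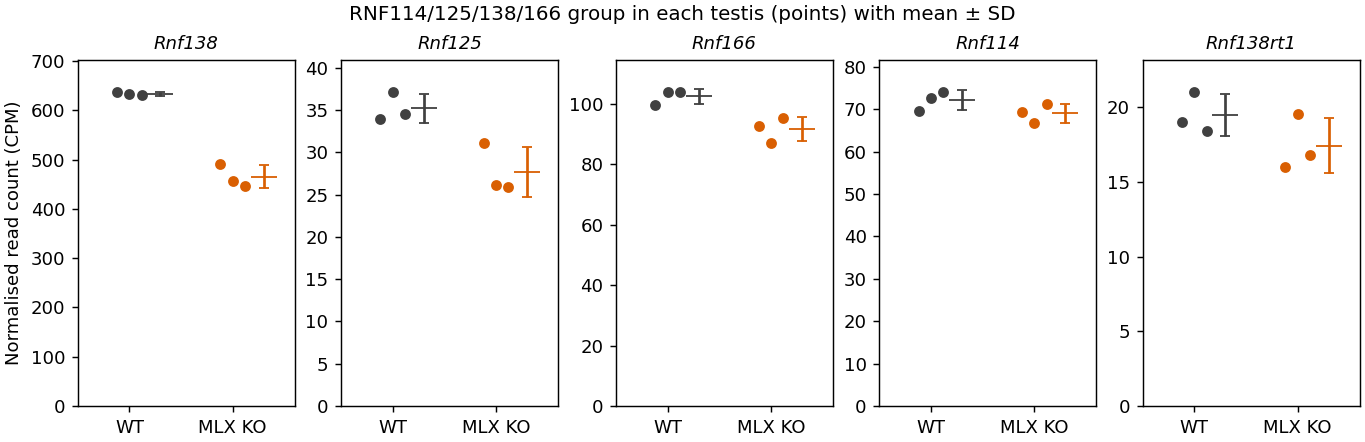
CPM (y axis, from 0, a separate scale in each panel) of *Rnf138* and its 4 relatives in the 3 WT and 3 MLX KO testes; points are single testes and the bar beside them is the mean ± SD. The groups are apart for *Rnf138*, *Rnf125* and *Rnf166* and overlap for *Rnf114* and *Rnf138rt1*.

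Among the members that passed, the 7 largest decreases were those of *Ube2dnl1*, *Rnf138*, *Rnf139*, *Rnf112*, *Rnf125*, *Rnf133* and *Rnf40*. *Ube2dnl1*, an X-linked gene that resembles the start of the UBE2D enzymes, stood at 12.02, 10.6 and 13.6 CPM in WT and 7.58, 7.97 and 7.62 CPM in KO. The LFC was -0.65 (SE 0.12, adjusted p = 0.00107), and 11.7% of its 50-base words also occur in *Ube2dnl2*, so reads may be split between them. *Rnf139*, which encodes the sterol-sensing ER ligase TRC8, fell from 890, 926 and 887 CPM to 710, 664 and 680 CPM. Its LFC was -0.40 (SE 0.05, adjusted p = 0.000117), and 26.2% of its exonic bases overlap other genes, among them *Tatdn1* on the opposite strand.

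*Rnf40*, a partner of RNF20 in the monoubiquitination of histone H2B, fell from 249, 262 and 256 CPM to 225, 200 and 192 CPM (LFC -0.31, SE 0.06, adjusted p = 0.00176). *Rnf112*, best known from the brain, went from 19.7, 20.1 and 19.7 CPM to 17.7, 15.2 and 13.7 CPM (LFC -0.35, adjusted p = 0.0128). Neither gene overlapped between genotypes, but the call of *Rnf112* was lost without KO replicate 3 (adjusted p = 0.0603) and on library totals alone (adjusted p = 0.0854).

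Among the members that passed, the 8 largest increases were those of *Rnf122*, *Ube2l6*, *Rnf150*, *Rnf128*, *Rnf130*, *Rnf135*, *Ube2d1* and *Rnf13*, whose WT levels ran from 0.0519 (*Rnf122*) to 11.4 (*Rnf130*) CPM per kilobase of exon. *Rnf122*, an ER and Golgi membrane ligase, had 6, 10 and 8 counts in WT and 18, 20 and 24 counts in KO, which gave an LFC of 1.25 (SE 0.34, adjusted p = 0.0107). That call was lost with DESeq2 (adjusted p = 0.067), with DESeq2 and the replicate block (0.157) and without WT replicate 1 (0.0529), and it rested on few reads in each library. *Ube2l6*, the E2 of the ubiquitin-like modifier ISG15, rose from 5.32, 5.41 and 5.70 CPM to 9.23, 10.6 and 9.95 CPM (LFC 0.86, SE 0.11, adjusted p = 0.000196). *Rnf135*, the ligase Riplet of the RIG-I pathway, rose from 5.59, 5.28 and 6.43 CPM to 7.79, 9.68 and 9.90 CPM (LFC 0.66, adjusted p = 0.00263). *Ube2d1*, a broad-acting E2, rose from 5.17, 4.64 and 5.75 CPM to 6.96, 9.57 and 7.99 CPM (LFC 0.65, adjusted p = 0.00467). In all 4 genes every KO testis exceeded every WT testis.

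**Figure D3:**
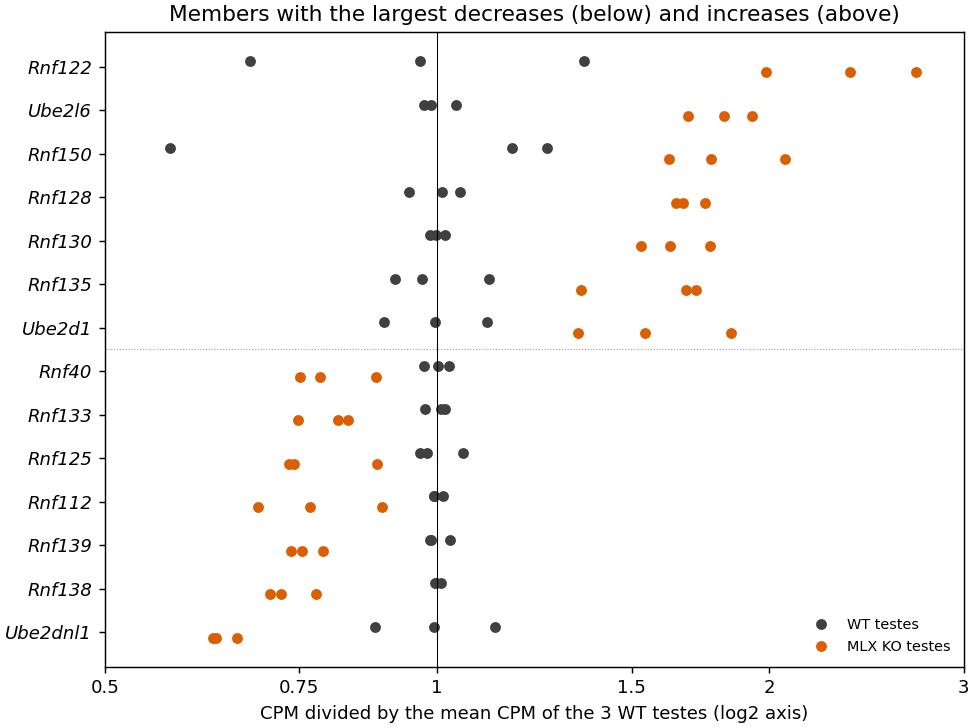
CPM of each testis divided by the mean of the 3 WT testes (x axis, log2 scale) for the 7 largest decreases and the 7 largest increases among members that passed the test; grey points are WT and orange points are MLX KO. All 14 genes keep the genotypes apart, and the WT points of *Rnf122* and *Rnf150* spread the most.

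Grouped by role, the ligases with testis-preferential expression were all lower. These were *Rnf17*, a tudor protein of the germ granules, *Rnf32*, the germ-cell membrane ligases *Rnf133* and *Rnf148*, and *Rnf151*, a spermatid protein of the forming acrosome. Of 5 tested, 5 were lower, with a median LFC of -0.27 and a range of -0.33 to -0.18. Over all genes tested 20.6% were lower. In the highest of the 3 level classes given below, which held all 5, the share was 62.3% and the median LFC -0.19. On library totals alone 3 of the 5 were lower and the median was -0.13. *Rnf133* had 223, 225 and 216 CPM in WT and 184, 179.9 and 165.5 CPM in KO (LFC -0.33, SE 0.05, adjusted p = 0.000551). *Rnf151*, the most abundant member per kilobase of exon in WT, had 350, 365 and 362 CPM in WT and 322, 286 and 289 CPM in KO (LFC -0.26, SE 0.05, adjusted p = 0.00261). *Rnf17* fell least, from 267, 280 and 265 CPM to 248, 234 and 235 CPM (LFC -0.18, adjusted p = 0.0113). The groups did not overlap for any of the 5, but the calls of *Rnf17* and *Rnf148* were lost on library totals alone. That of *Rnf17* was also lost without WT replicate 2, KO replicate 2 or KO replicate 3.

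The Goliath ligases, transmembrane proteins with a protease-associated domain that work in endosomes and the ER, moved the other way. Of 6 tested, *Rnf13*, *Rnf128*, *Rnf130* and *Rnf150* were higher, none was lower, and the median LFC was 0.64. Over all genes tested 24.8% were higher. The share was 31.7% in the lowest level class, which held *Rnf13*, *Rnf128* and *Rnf150*, and 22.6% in the middle class, which held *Rnf130*. *Rnf130*, the mammalian Goliath gene, rose from 17.7, 18.1 and 17.5 CPM to 27.2, 28.8 and 31.3 CPM (LFC 0.71, SE 0.08, adjusted p = 5.27e-05), the smallest adjusted p of the family. *Rnf128*, known as GRAIL from T-cell anergy, rose from 5.80, 5.21 and 5.58 CPM to 9.23, 9.68 and 9.11 CPM (LFC 0.75, adjusted p = 0.000389). *Rnf13* rose from 23.9, 23.0 and 21.8 CPM to 31.6, 37.3 and 32.7 CPM (LFC 0.56, adjusted p = 0.000299). *Rnf150* had 53, 20 and 46 counts in WT and 89, 71 and 68 counts in KO (LFC 0.84, SE 0.25, adjusted p = 0.0166). For these 4 genes every KO testis lay above every WT testis. *Rnf149* (LFC 0.22, adjusted p = 0.0526) and *Rnf167* (LFC -0.14, adjusted p = 0.144) did not pass. *Rnf133* and *Rnf148* share this protein architecture and fell.

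Ligases of the ER membrane split: *Rnf139* and *Rnf26* were lower, *Rnf145* was higher and 5 of the 8 did not pass. Over all genes tested 20.6% were lower and 24.8% were higher. On library totals alone the 8 gave 4 higher and 1 lower. *Rnf145*, a sterol-linked ligase like *Rnf139*, had 20.5, 21.2 and 21.8 CPM in WT and 22.5, 27.8 and 26.0 CPM in KO (LFC 0.27, SE 0.09, adjusted p = 0.0274). Both sterol-linked genes thus had separate groups with opposite signs, though the call of *Rnf145* was lost with DESeq2, with or without the replicate block, and without any 1 of 4 libraries (WT replicates 1 and 2, KO replicates 2 and 3). *Rnf26* shares 65.2% of its exonic bases with overlapping genes, so its value is uncertain. The 8 RING-between-RING ligases gave 2 lower (*Rnf19b*, *Rnf216*) and 1 higher (*Rnf144a*, LFC 0.30, adjusted p = 0.00385). *Rnf19b*, ranked 3 in WT level per kilobase, had 654, 694 and 666 CPM in WT and 588, 543 and 556 CPM in KO (LFC -0.26, adjusted p = 0.00203), whereas its paralog *Rnf19a* had overlapping groups (LFC -0.15, adjusted p = 0.112). The call of *Rnf216* was lost on library totals alone and without WT replicate 2, KO replicate 2 or KO replicate 3. That of *Rnf144a* was lost under DESeq2 with the replicate block.

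None of the 4 DNA damage ligases tested passed, and none had separate groups. *Rnf4* had an LFC of -0.09 (SE 0.05, adjusted p = 0.201), *Rnf8* 0.08 (SE 0.09, adjusted p = 0.511), *Rnf168* -0.10 (SE 0.06, adjusted p = 0.240) and *Rnf169* 0.18 (SE 0.11, adjusted p = 0.183). Other ligases of meiotic recombination were not tested here. RNF8 and RNF168 build the ubiquitin marks on chromatin at DNA breaks. *Rnf138*, which acts on the same breaks, was thus lower while these 4 did not reach the threshold, as 45.4% of all genes tested did. Its LFC differed by -0.36 (SE 0.07) from *Rnf4*, -0.35 (SE 0.08) from *Rnf168*, -0.52 (SE 0.10) from *Rnf8* and -0.63 (SE 0.12) from *Rnf169*. Levels differed too: *Rnf138* and *Rnf4* were in the highest level class given below, *Rnf168* in the middle, and *Rnf8* and *Rnf169* in the lowest. The median LFC of all genes in these classes was -0.19, -0.03 and 0.19. On library totals alone 1 of the 4 was higher. Of the chromatin ligases only *Rnf40* was lower, and *Rnf20* (LFC 0.11, adjusted p = 0.132) and *Rnf2* of Polycomb complex PRC1 (LFC 0.04, adjusted p = 0.708) did not pass. Of the Wnt pathway ligases only *Rnf220* was lower (LFC -0.18, adjusted p = 0.0103), a call lost on library totals alone and without KO replicate 2 or 3. *Rnf43*, a ligase of the Frizzled receptors, narrowly missed the threshold at 4.11, 4.39 and 4.68 CPM in WT against 3.46, 3.37 and 3.23 CPM in KO (LFC -0.39, adjusted p = 0.0518).

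**Figure D4:**
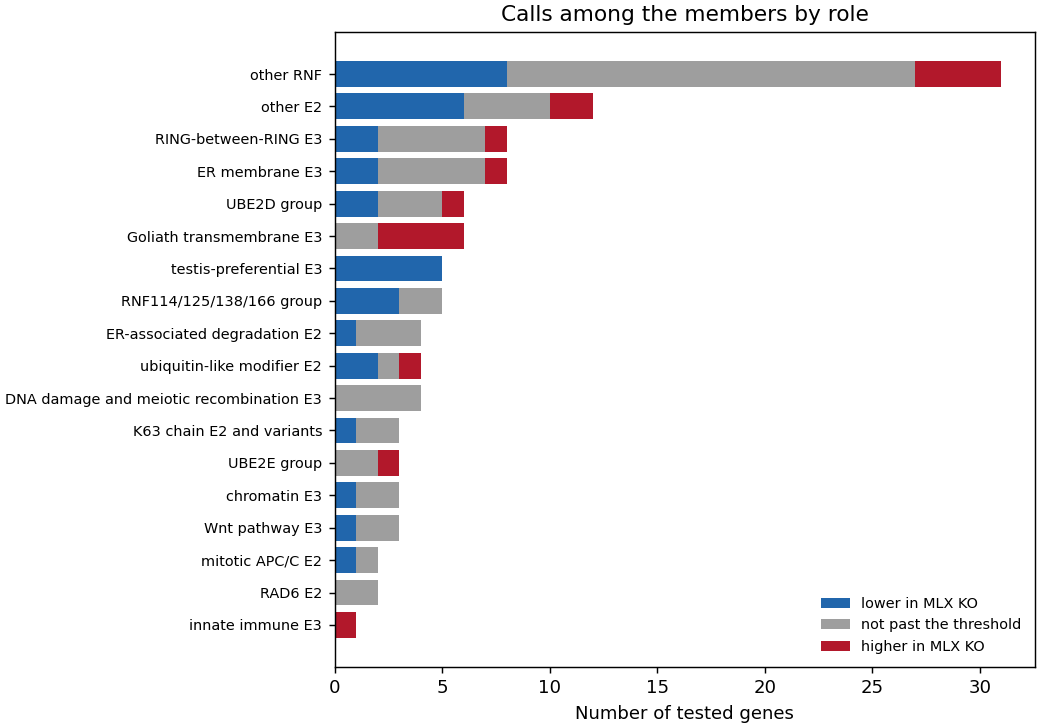
Number of tested members (x axis) in each role list, coloured by whether they were lower in MLX KO, higher in MLX KO or not past the threshold. The testis-preferential ligases are lower in 5 of 5, the Goliath ligases are higher in 4 of 6, and the DNA damage and RAD6 lists hold no call. Over all genes tested 20.6% were lower and 24.8% were higher.

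Among the E2 enzymes the UBE2D group, which serves very many RING ligases, changed in both directions. *Ube2dnl1* and *Ube2d2b* were lower, *Ube2d1* was higher, and *Ube2d2a*, *Ube2d3* and *Ube2dnl2* did not pass. *Ube2d2b*, a testis-expressed copy, had 352, 388 and 371 CPM in WT and 335, 305 and 300 CPM in KO (LFC -0.24, SE 0.06, adjusted p = 0.00574), and the call was lost on library totals alone (adjusted p = 0.0714). *Ube2d3*, with 242, 249 and 244 CPM in WT and 244, 240 and 243 CPM in KO, had an LFC of -0.02 with an SE of 0.04.

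*Ube2j1*, an ER-associated degradation enzyme that male mice need for fertility, was lower, with 526, 529 and 519 CPM in WT and 471, 418 and 428 CPM in KO (LFC -0.26, SE 0.05, adjusted p = 0.00271). Its groups did not overlap. *Ube2n*, which makes K63-linked chains, was lower (LFC -0.23, adjusted p = 0.00307), while its partners *Ube2v1* (LFC 0.03, adjusted p = 0.684) and *Ube2v2* (LFC 0.03, adjusted p = 0.664) did not pass. On library totals alone these 3 genes gave 2 higher and 1 lower. Of the mitotic enzymes of the anaphase-promoting complex, *Ube2s* was lower (LFC -0.23, adjusted p = 0.00489) and *Ube2c* did not pass (LFC -0.24, adjusted p = 0.0770). The call of *Ube2s* was lost on library totals alone. Neither RAD6 enzyme passed: *Ube2b*, which mice need for sperm production, had 133, 130 and 127 CPM in WT and 131, 123 and 117 CPM in KO (LFC -0.07, SE 0.05, adjusted p = 0.276), and *Ube2a* had an LFC of 0.10 (adjusted p = 0.484).

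Enzymes of the ubiquitin-like modifiers gave 1 higher, *Ube2l6*, and 2 lower, the NEDD8 enzymes *Ube2f* (LFC -0.22, adjusted p = 0.0153) and *Ube2m* (LFC -0.16, adjusted p = 0.0151). Both NEDD8 calls were lost on library totals alone and without WT replicate 2 or KO replicate 3, and that of *Ube2m* also without KO replicate 2. In the UBE2E group *Ube2e3* was higher (LFC 0.34, adjusted p = 0.00914). Of the 12 other *Ube2* genes tested, 6 were lower (*Ube2k*, *Ube2q1*, *Ube2q2*, *Ube2t*, *Ube2u* and *Ube2w*), with LFCs between -0.28 and -0.14. *Ube2h* (LFC 0.23) and *Ube2z* (LFC 0.29) were higher. Over all genes tested 20.6% were lower and 24.8% were higher. In the highest level class given below, which held *Ube2k* and *Ube2u*, 62.3% were lower. In the middle class, which held the other genes named, 21.6% were lower and 22.6% were higher. On library totals alone this list gave 3 higher and 1 lower. The calls of *Ube2k*, *Ube2q2*, *Ube2t* and *Ube2u* were lost without KO replicate 2, among other settings, and the LFC of *Ube2u* changed sign on library totals alone. The remaining 31 *Rnf* genes tested gave 4 higher and 8 lower with a median LFC of -0.07. On library totals alone they gave 6 higher and 3 lower.

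Outside the symbol rule, the other genes of the pathway showed no common direction. The 9 E1 genes gave 2 higher and 2 lower, so 44.4% passed beside 45.4% of all genes tested. *Uba1*, the main E1, had an LFC of 0.03 (adjusted p = 0.725). *Uba7*, the E1 of ISG15 and so the enzyme that loads the *Ube2l6* product, was higher (LFC 1.52, SE 0.29, adjusted p = 0.00153) at 0.527, 0.445 and 0.677 CPM in WT and 1.86, 1.55 and 1.38 CPM in KO. *Isg15* itself had too few reads for the test, and *Herc6* and *Usp18* did not pass. Of the known partners and targets of RNF138, *Rbbp8* (CtIP) was lower (LFC -0.42, adjusted p = 0.000882), *Xrcc6* (Ku70, LFC 0.31, adjusted p = 0.00431) and *Nlk* (LFC 0.41, adjusted p = 0.00381) were higher, and *Xrcc5* (Ku80) and *Rad51d* did not pass.

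Direction went with level. Tested members were split into 3 classes of near-equal size by mean CPM per kilobase of exon over all 6 testes, with limits at 5.91 and 21.0. In the lowest class 10 of 36 members were higher and 2 were lower, in the middle class 6 of 37 were higher and 12 were lower, and in the highest class 0 of 37 were higher and 21 were lower. All genes tested followed the same order of levels: in the lowest, middle and highest range 31.7%, 22.6% and 7.55% were higher and 5.86%, 21.6% and 62.3% were lower. The matching shares of members were 27.8%, 16.2% and 0% higher and 5.56%, 32.4% and 56.8% lower. The shares were closest in the lowest class, while in the middle class more members were lower than higher and all genes were almost evenly split. *Rnf138* belonged to the highest class, where the median LFC was -0.16 for members and -0.19 for all genes.

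**Figure D5:**
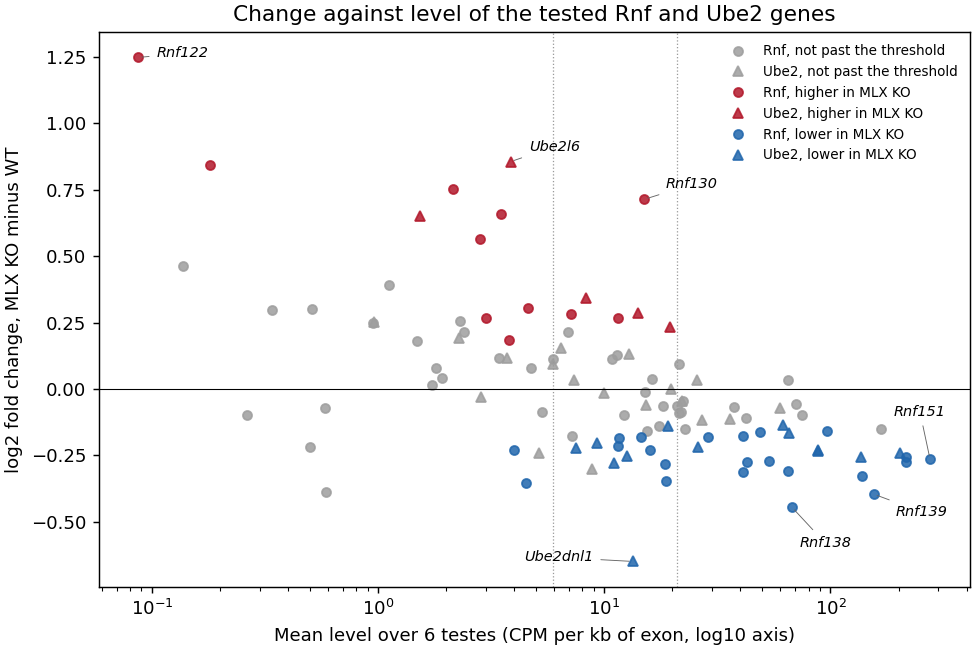
LFC (y axis) of each tested member against its mean CPM per kilobase of exon over the 6 testes (x axis, log10 scale), with circles for *Rnf* genes, triangles for *Ube2* genes and dotted lines between the 3 level classes. Red points thin out from left to right, none lies right of the second line, and *Rnf138* is the lowest point there.

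Cell type markers moved with genotype too. All 10 Sertoli cell markers, all 7 Leydig cell markers and all 8 macrophage markers tested were higher in the KO. Their summed CPM rose from 934–980 to 1439–1752 for Sertoli cells, from 771–795 to 1710–2199 for Leydig cells, and from 80.3–85.02 to 166.1–172 for macrophages. In contrast 6 of 8 spermatocyte markers, 6 of 6 round spermatid markers and 9 of 9 elongating spermatid markers were lower. Their summed CPM fell from 1593–1657 to 1401–1463, from 1162–1204 to 991–1030, and from 22883–23843 to 13572–16545. Spermatogonial markers gave 2 higher and 1 lower of 7, endothelial markers 2 higher of 5, peritubular myoid markers 3 higher of 4 and T-cell markers none of 2. The 3 epididymal markers with a row summed to less than 1 CPM in every library, and *Lcn5* had 0 counts in all 3 KO testes. The *Rnf138* fall (LFC -0.45) stood beside median LFCs of -0.16 for spermatocyte, -0.26 for round spermatid and -0.55 for elongating spermatid markers. The Goliath median (0.64) stood beside medians of 0.44 for peritubular myoid, 0.55 for endothelial, 0.78 for Sertoli cell, 1.07 for Leydig cell and 1.21 for macrophage markers. In whole testes, fewer cells of a type and less RNA per cell cannot be told apart, and the part that cell makeup had in the members' changes was not tested.

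MLX binds DNA with partner proteins at the E-box CACGTG, and the germ-cell activator CREM at the cAMP response element TGACGTCA. Both motifs read the same on either strand. RefSeq promoter windows, from 250 bases before to 50 after the start, were matched for 92 of the 116 members and not for *Rnf138*. The E-box was present in 7 of these 92 (7.61%) and in 8.09% of the windows of 27025 genes, and the response element in 3 (3.26%) and 2.03%. Of the 7 members with an E-box, *Rnf151*, *Rnf166* and *Ube2q1* were lower, *Rnf145* was higher, and *Rnf44*, *Ube2b* and *Ube2cbp* did not pass. The stretches below come from 1 member of each outcome and 1 member with the response element. They are shown because the same E-box stood before the window's start in members that fell, rose or did not pass. Capitals mark the motif and the letters run 5′ to 3′ on the gene's strand, from GRCm38.p6.
Rnf166, chr8:122475830-122475895, minus strand: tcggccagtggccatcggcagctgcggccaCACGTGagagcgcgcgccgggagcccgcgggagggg
Rnf145, chr11:44518706-44518761, plus strand: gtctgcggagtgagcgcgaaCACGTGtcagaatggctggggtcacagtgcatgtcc
Ube2b, chr11:52000787-52000923, minus strand: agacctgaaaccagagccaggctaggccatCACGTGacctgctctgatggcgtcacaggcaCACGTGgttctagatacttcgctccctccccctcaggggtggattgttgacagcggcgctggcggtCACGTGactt
Ube2h, chr6:30304540-30304593, minus strand: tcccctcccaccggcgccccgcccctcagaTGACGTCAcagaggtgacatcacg

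The E-box began 141 bases before the start that the window used for *Rnf166* and 230 bases before that used for *Rnf145*. These starts are not the outer ends of the genes. The span of *Rnf166* runs from 122466145 to 122476074 and contains its stretch, whereas that of *Rnf145* begins at 44518793, after its stretch. *Ube2b* held 3 E-boxes in its 137-base stretch. A match describes these letters only and is not a bound site.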

How the data were processed

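The authors aligned the reads to mm10 with TopHat, per the submitters' processing notes, and deposited whole-number counts per gene symbol and library (17933 rows, of which 2 repeats were used once). The counting tool, its annotation and its strand setting are not given in the sources used here. The authors' own comparison of the genotypes, in the same table, and the ChIP-Seq samples were not used here.

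Counts were tested with edgeR 4.0.16 in R 4.3.3 (filterByExpr with a minimum count of 10, TMM, quasi-likelihood test, two-sided, genotype only, Benjamini-Hochberg over 14640 genes). Members and lists were chosen with earlier results of these data known. Named genes were *Rnf138* with its relatives, the 8 largest increases and decreases that passed in the same direction in 3 pairs, the 5 highest WT levels, and examples from each role list, apart from a few genes that are not reported here. Exon lengths, overlaps and shared 50-base words came from GENCODE vM21, and coordinates and promoters from RefSeq GRCm38.p6. Of the members, 20 share over 5% of their exonic bases with another gene. On data simulated with a common dispersion, 97 of 100 genes changed by a log2 of 1 were recovered and 7 unchanged genes were called. Smaller changes, such as those of most members, were not simulated, so their recovery is not known. Titles name paired replicates and the study describes littermate pairs. Deviations from group means correlated at 0.145, 0.0363 and 0.121 for same-numbered libraries and at most 0.0330 for others, so the replicate block (3 pairs) was an alternative, as were DESeq2 1.42.0, other scalings and filters, and leaving out each library.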

Additional observations from a re-analysis of the deposited data

How the results depend on the processing

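Of the 51 members called, 25 held the call under every alternative, 26 lost it under 1 or more, and 24 members not called gained a call under 1 or more. *Rnf138* stayed past the threshold under all 14. On library size alone, 31 members were higher and 15 lower, and the LFC of *Rnf114* turned to 0.077. With the replicate block (paired fit), edgeR called 50 members, and DESeq2 called 39, of which 10 were higher. The total of called members ran from 39 to 54 over the alternatives that kept all libraries. Leaving out 1 library gave 37 to 60 called members, 13 to 20 higher and 23 (without KO replicate 2) to 40 (without KO replicate 1) lower, and an LFC of *Rnf138* between -0.48 and -0.41. Libraries of a group were also compared in pairs, with counts set against those expected from their totals (chi-square per degree of freedom). This was 8.22 and 8.23 for KO replicate 1 against KO replicates 2 and 3. It was 2.73 between KO replicates 2 and 3 and 3.03 to 4.31 within WT, so KO replicate 1 stood apart from the other KO libraries. The cause of these shifts was not tested. With 3 testes a group, changes of the size of *Rnf166* (LFC -0.16) stood near the limit of what these libraries resolved, and the 6 members not tested had too few reads for any statement.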

Other observations

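*Rnf165*, a ligase best known from motor axon growth, differed more between pair 1 and the other pairs than between genotypes. It had 42, 13 and 8 counts in WT replicates 1 to 3 and 65, 15 and 13 counts in the KO replicates of the same numbers. Both libraries of pair 1 thus lay above the other 4. In CPM the KO library was the higher in all 3 pairs, though barely in pair 2 (0.827 in WT and 0.830 in KO). The LFC of *Rnf165* was 0.46 with an SE of 0.63 (edgeR, adjusted p = 0.579). It ran from -0.64 without KO replicate 1 to 1.37 without WT replicate 1, over the 6 fits that each left out 1 library. *Rnf165* was singled out after its values were seen.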
